A study of Mus musculus with 6 samples.

Results

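The guides described here target upstream translons of 5 mouse genes that mark pluripotent cells or regulate lineage and transcription, namely Dppa3, Dppa5a, Gata6, Rest and Nr1h2. They were taken from the deposited count table by the host gene in the guide's name, which gave 9 of 151 named guides and 5 of 73 hosts. Dppa3 has 1 guide in the table and the other hosts have 2 each. Gata6 guide 1 had a count of 0 in each library, so 8 guides were compared, and all 8 passed the minimum of 10 counts in 3 libraries.

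An upstream translon is a stretch of an mRNA that is translated and starts 5′ of the main reading frame. The cells were an embryonic stem cell line of C57BL/6 background, labelled #693 ES C57BL/6, infected with a lentiviral pool in which each virus carries Cas9 and a guide. The groups were 3 libraries from day 0 and 3 from day 10 of the screen, with no other agent or engineered allele in the labels, which call the libraries biological replicates of each day and do not say which event day 0 marks. In such a screen cells with a harmful cut are outgrown, so that their guide takes a smaller share of the counts with time. The guides had been picked, 2 for a translon, by predicted on-target score, mismatch score and position. All groups share the 1 cell line and the 1 guide pool, and the table counts guides in DNA, so neither the cell type nor the level of the host genes could be checked.

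The hosts have different roles in pluripotency, lineage or transcription. Dppa3, also called Stella, is a maternal factor that shapes DNA methylation in the egg and early embryo and is also present in naive stem cells and germ cell precursors. Dppa5a is an RNA-binding protein with a KH domain and a marker of pluripotent cells. Gata6 is the transcription factor that drives primitive endoderm, the lineage that the pluripotent epiblast separates from. Rest is a zinc finger repressor that silences neuronal genes outside neurons, and Nr1h2, the liver X receptor beta, is a nuclear receptor that is activated by oxysterols and controls cholesterol export.

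The sequences are shown first because the values below belong to single cut sites. The guides of Dppa5a, in which capitals mark the 11 bases that each shares with the other on the opposite strand, were
Dppa5a guide 1: gggtcaccaTCATCCTGCCA
Dppa5a guide 2: ctggttcctTGGCAGGATGA

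Joined through these bases, the Dppa5a guides span 29 bases, written below on the strand of guide 2. The capitals mark the motif that Cas9 needs beside its target, TGG for guide 2 and AGG, read as CCT on this strand, for guide 1.
Dppa5a joined target: ctggttCCTtggcaggatgaTGGtgaccc

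With the usual cut 3 bases from the motif, guide 1 would cut between bases 12 and 13 and guide 2 between bases 17 and 18, which are 5 bases apart. The joined sequence holds 2 ATG triplets, at bases 17 to 19 and 20 to 22, so the cut predicted for guide 2 falls within the first of them. Where these triplets lie relative to the coding sequence of Dppa5a was not analysed here. Of 73 pairs of guides to 1 host, 17 share a stretch of 11 or more bases on the same or the opposite strand. The pairs of Rest and Nr1h2 share at most 6 and 4 bases.

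The guides of the other hosts, in which capitals mark the last 10 bases, next to the motif, were
Rest guide 1: gcggagcgggATCAGACCGC
Rest guide 2: aagaccgaggAGCGCCGCCG
Nr1h2 guide 1: aatcaccggtGCGGACACAG
Nr1h2 guide 2: ctcgcagctcTCGCCTCCCA

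The guide of Dppa3 is shown apart because it ends in a run of 4 T, marked in capitals, and runs of T are the signal at which RNA polymerase III stops.
Dppa3 guide 1: gctaattgggtcttggTTTT

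Such a run is present in 6 of the 136 counted guides (4.41%), and whether it affected the level of this guide was not tested. The Gata6 sequences are not printed here. GC content was 40.0% for the guide of Dppa3, 60.0% and 55.0% for guides 1 and 2 of Dppa5a, 60.0% and 70.0% for those of Nr1h2, and 75.0% for each guide of Rest and Gata6, against a median of 60.0% over the counted guides. An ATG on either strand is present in both guides of Dppa5a and in none of the other 7, against 35 of the 136 counted guides (25.7%).

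Named guides had between 21991 counts, in day 10 replicate 3, and 784149 counts, in day 10 replicate 2. The 8 guides together took 10.1% to 10.2% of the named counts in the day 0 libraries and 9.79% to 10.8% in the day 10 libraries. Values are given as counts per 1e6 counts (CPM) after TMM scaling of the libraries, which assumes that most guides do not change. A log2 fold change above 0 means more counts at day 10.

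Among the 8 guides, 1 was past an adjusted p of 0.05 in edgeR's quasi-likelihood test, Dppa5a guide 2, which was lower at day 10. This is 1 of 8 against 21.3% of the 136 tested guides. The 8 log2 fold changes ran from −0.24 to 0.26 with a median of 0.09, against −2.68 to 0.55 with a median of 0.00 over all tested guides, and 6 of the 8 were above 0. Of these 6, Dppa3 guide 1 and Nr1h2 guide 1 were below 0 with size factors from the summed control guides, which moved the median of all guides to −0.11. The 6 control guides, which target nothing or a safe site, ran from −0.42 to 0.55, a range that holds each of the 8 but joins both kinds of control. The 3 that target nothing were at 0.13, 0.32 and 0.55, and the 3 of a safe site at −0.42, −0.37 and 0.00. All guides above 0 thus lay above the safe-site controls. Both Dppa5a guides, Dppa3 guide 1 and Nr1h2 guide 1 lay below all controls that target nothing. The controls had 709 to 3038 CPM at day 0, less than most of the 8. For 3 of the 8 guides all values of 1 day lay above all values of the other, namely Dppa5a guide 2, Gata6 guide 2 and Rest guide 1, against 38.2% of the 136. Summed by host, 1 of the 5 hosts, Dppa5a, was past the threshold, against 37.3% of the 67 tested hosts, and 4 of the 5 had an unadjusted p under 0.05, against 46.3% of the 67. The days were fully apart in CPM for 3 of the 5 hosts, Dppa5a, Gata6 and Nr1h2, against 47.8% of the 67. The counts of adjusted calls thus lie below the shares of the whole pool, and the count of hosts by unadjusted p lies above its share. The counts of guides and hosts without overlap lie near theirs. With 8 guides and 5 hosts such differences rest on very few members, and none was tested.

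Dppa5a guide 2 had 15726, 15623 and 15822 CPM in day 0 replicates 1 to 3 and 12416, 14182 and 13204 CPM in day 10 replicates 1 to 3. All day 10 libraries lay below all day 0 libraries, and the spread within day 10 was the wider. The mean was 15723 ± 99.5 CPM at day 0 and 13267 ± 885 CPM at day 10 (SD, n = 3 per day). On the log2 scale the guide fell by 0.24 ± 0.0698 (SE), to 0.844 times the day 0 level, and its adjusted p by edgeR was 0.0394. The guide ranked 33rd from the lowest among 136. Taking the libraries with the same screen number as a pair, its log2 changes in screens 1 to 3 were −0.34, −0.14 and −0.26. Whether a number marks 1 infection is not given in the sources used here.

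Dppa5a guide 1, whose predicted cut lies 5 bases away, was far rarer and its change was not detectable at this depth. It had 23, 20 and 160 counts in day 0 replicates 1 to 3 and 139, 109 and 11 counts in day 10 replicates 1 to 3, or 224, 176 and 263 CPM and 217, 139 and 499 CPM. The groups overlapped, and the highest value rested on the 11 counts of the shallowest library, for which the exact 95% Poisson interval is 5.49 to 19.7 counts. The fitted log2 fold change was −0.06 (95% interval −1.04 to 0.92, edgeR adjusted p = 0.962), while the plain mean of CPM was higher at day 10, at 285 ± 189 against 221 ± 43.3 (SD, n = 3 per day). This interval holds the change of guide 2 as well as no change and larger changes in either direction.

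With both guides summed, Dppa5a had 15944 ± 143 CPM at day 0 and 13552 ± 854 CPM at day 10 (SD, n = 3 per day). The host fell by 0.24 ± 0.0727 (SE) on the log2 scale, with an adjusted p of 0.0152 by edgeR, and ranked 13th from the lowest among 67 hosts. Almost all of these counts come from guide 2. Blocking on the screen number gave adjusted p-values by edgeR of 0.0706 for guide 2 and 0.0402 for the host. The call was lost for the guide without any 1 of the day 0 libraries (edgeR adjusted p = 0.163, 0.126 and 0.177 without replicates 1, 2 and 3) and for the host without day 0 replicate 1 (0.0910) or 3 (0.125), and for both with median-ratio size factors of the control guides (0.508 and 0.588). It was also lost for the guide after removal of the trend with GC content (0.0754), and for both with that trend removed and the block (0.128 and 0.0815). These settings called fewer guides over the whole pool, where the main fit called 29 of 136. Without day 0 replicates 1, 2 and 3 the number was 3, 5 and 10, and with the median-ratio factors it was 0, with 2 of 67 hosts. With size factors from the summed control guides the edgeR adjusted p was 0.0138 for guide 2 and 0.00495 for the host. The log2 fold change of the guide stayed between −0.36 and −0.18 over all alternatives.

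Gata6 was measured through guide 2 alone. Its values were 2561, 2873 and 2935 CPM in day 0 replicates 1 to 3 and 3215, 3620 and 3085 CPM in day 10 replicates 1 to 3. All day 10 libraries lay above all day 0 libraries, with 68 counts (exact 95% Poisson interval 52.8 to 86.2) behind the value of day 10 replicate 3. The mean was 2789 ± 200 CPM at day 0 and 3307 ± 279 CPM at day 10 (SD, n = 3 per day). The log2 fold change of the guide was 0.26 (95% interval −0.01 to 0.52, edgeR adjusted p = 0.153), and that of the host, tested among hosts, was 0.26 with an edgeR adjusted p of 0.0845. With size factors from the summed control guides they were 0.14 (0.547) and 0.16 (0.423), and with the GC trend removed both were 0.12.

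An unnamed sequence of the table overlaps the missing Gata6 guide 1. Its reverse complement shares 17 bases with that guide, against at most 8 bases with any other named guide on either strand. Among the other unnamed sequences the longest such share is 16 bases. Beyond the 17 shared bases, the remaining 3 bases of Gata6 guide 1, read on the other strand, are GGG, which has the form of the Cas9 motif. The unnamed sequence had 29467 counts in all, 93.2% of the counts of the 216 unnamed sequences, and 12618, 11620 and 11680 CPM in day 0 replicates 1 to 3 and 12722, 13839 and 13657 CPM in day 10 replicates 1 to 3. The lowest day 10 value lay just above the highest day 0 value. Its log2 fold change was 0.16 (95% interval 0.00 to 0.32, edgeR adjusted p = 0.142). Counted as a second Gata6 guide, it moved the host from 0.26 to 0.18 ± 0.0652 (log2, SE) and past the threshold (edgeR adjusted p = 0.0444). In that setting 26 of the 67 hosts passed. Of the counts then summed for Gata6, 7332 came from guide 2 and 29467 from the unnamed sequence. Whether this sequence is the Gata6 guide that was cloned was not tested, and the values of Gata6 without it are the ones counted above.

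Rest had both guides above 0. Guide 1 had 15823, 17050 and 16191 CPM in day 0 replicates 1 to 3 and 17230, 18309 and 18966 CPM in day 10 replicates 1 to 3. The days did not overlap, and the change within each of the 3 screens was positive, at 0.12, 0.10 and 0.23. Its log2 fold change was 0.14 (95% interval 0.00 to 0.29, edgeR adjusted p = 0.141). Guide 2 had 5054, 5719 and 5328 CPM at day 0 and 5529, 7572 and 5173 CPM at day 10, and day 10 replicates 1 and 3 lay within the day 0 range while day 10 replicate 2 lay above it. Within screens 1 to 3 guide 2 had log2 differences of 0.13, 0.40 and −0.04. Its log2 fold change was 0.22 (95% interval −0.09 to 0.52, edgeR adjusted p = 0.285). Without day 10 replicate 1 both guides were past the threshold (edgeR adjusted p = 0.0144 and 0.00148), and without day 10 replicate 2 the log2 fold change of guide 2 was 0.03 (0.797). Over the whole pool 47 of the 136 guides passed without day 10 replicate 1, against 29 in the main fit.

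The summed Rest guides had 21721 ± 962 CPM at day 0 and 24260 ± 1565 CPM at day 10 (SD, n = 3 per day). The log2 fold change was 0.16 ± 0.0624 (SE) and the edgeR adjusted p was 0.0512, just over the threshold. The highest day 0 value, 22769 CPM, and the lowest day 10 value, 22759 CPM, overlapped by a narrow margin. The host passed the threshold with the replicate block (edgeR adjusted p = 0.0387), with DESeq2 size factors (0.0291) and without day 10 replicate 1 (2.83e-04). It also passed with the DESeq2 test (0.0293), with a variance per day (limma adjusted p = 0.00864) and narrowly with Stouffer's combination (0.0490). Over all 67 hosts 25 passed in the main fit and with the block, 30 with DESeq2 size factors and 29 without day 10 replicate 1. The number was 26 with the DESeq2 test, 37 with a variance per day and 20 with Stouffer's combination. Rest had a log2 fold change of 0.04 with size factors from the summed control guides and of 0.04 after removal of the trend with GC content.

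Nr1h2 had the most abundant guide of the set, and its summed counts had the smallest SE of the 5 hosts. Guide 1 had 22600, 23271 and 22883 CPM at day 0 and 21741, 24064 and 25954 CPM at day 10 in replicates 1 to 3. Guide 2 had 17673, 18011 and 17466 CPM at day 0 and 20968, 19716 and 16698 CPM at day 10. For both guides the day 10 libraries lay on both sides of the day 0 libraries, with day 10 replicate 1 the lowest for guide 1 and the highest for guide 2. The log2 fold changes were 0.05 (95% interval −0.10 to 0.20, edgeR adjusted p = 0.722) and 0.13 (95% interval −0.04 to 0.30, edgeR adjusted p = 0.261).

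Summed, the Nr1h2 guides had 40273, 41282 and 40349 CPM at day 0 and 42708, 43780 and 42652 CPM at day 10. The days no longer overlapped, and the log2 change was 0.08 in each of the 3 screens. The fit gave 0.08 ± 0.0362 (SE, edgeR adjusted p = 0.0761), and 0.0362 with the replicate block. Leaving out day 10 replicate 1, 2 or 3 also put it past the threshold (edgeR adjusted p = 0.0250, 0.0462 and 0.0460), and leaving out day 10 replicate 3 did so for guide 2 (0.0304). The host also passed with DESeq2 size factors (edgeR adjusted p = 0.0172). With a variance per day both the host and guide 2 passed (limma adjusted p = 0.0232 and 0.0145). Over all 67 hosts 25 passed in the main fit and with the block, 30 with DESeq2 size factors and 37 with a variance per day. The number was 29, 26 and 30 without day 10 replicates 1, 2 and 3. Over all 136 guides 29 passed in the main fit, 37 without day 10 replicate 3 and 50 with a variance per day. With size factors from the summed control guides the log2 fold change of the host was −0.04, on the other side of 0. With the GC trend removed it was 0.05 (edgeR adjusted p = 0.662), and with median-ratio factors of the control guides 0.11 (0.811). The 0.08 of the main fit is 1.06 times the day 0 level.

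Dppa3 guide 1 had 20867, 19244 and 19262 CPM at day 0 and 17514, 20706 and 22869 CPM at day 10. The day 10 libraries surrounded the day 0 libraries, and the changes within screens 1 to 3 were −0.25, 0.11 and 0.25. The mean was 19791 ± 932 CPM at day 0 and 20363 ± 2694 CPM at day 10 (SD, n = 3 per day). The log2 fold change was 0.02 (95% interval −0.17 to 0.22, edgeR adjusted p = 0.905). This interval concerns the mean change, and the changes within screens 1 and 3 lay outside it. It was −0.10 with size factors from the summed control guides. After removal of the GC trend the log2 fold change of the guide was 0.22 (edgeR adjusted p = 0.0754), and that of the host was 0.21 (0.0229), past the threshold. In that setting 22 of the 67 hosts passed.

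Guides to 1 host were set against each other within each library, which needs no scaling between libraries. The ratio of guide 1 to guide 2 of Rest was 3.13, 2.98 and 3.04 in day 0 replicates 1 to 3 and 3.12, 2.42 and 3.66 in day 10 replicates 1 to 3. For Nr1h2 it was 1.28, 1.29 and 1.31 at day 0 and 1.04, 1.22 and 1.55 at day 10, and for Dppa5a it was 0.0145, 0.0116 and 0.0166 and then 0.0175, 0.00988 and 0.0395. In all 3 hosts the ratios of day 10 spread to both sides of those of day 0. The log2 ratio changed by −0.01 (95% interval −0.37 to 0.34) for Rest, by −0.05 (−0.35 to 0.26) for Nr1h2 and by 0.43 (−0.79 to 1.65) for Dppa5a, with limma adjusted p-values of 0.984, 0.880 and 0.754. By a two-sided exact permutation test p was 0.9, 0.7 and 0.6, where 0.1 is the smallest value that 3 libraries against 3 allow. By limma 0 of the 63 hosts with 2 tested guides passed the adjusted threshold (0%), and 9 had an unadjusted p under 0.05.

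Ratios between hosts were also taken within each library. Dppa5a over Rest was 0.694 to 0.764 at day 0 and 0.553 to 0.568 at day 10. Dppa5a over Nr1h2 went from 0.383 to 0.399 down to 0.296 to 0.327, and Dppa5a over Gata6 from 5.48 to 6.23 down to 3.93 to 4.44. Dppa3 over Dppa5a was 1.20 to 1.31 at day 0 and 1.39 to 1.67 at day 10. These 4 of the 10 ratios did not overlap between the days, and the 6 ratios among Dppa3, Gata6, Rest and Nr1h2 overlapped. Over all 2211 ratios between tested hosts, 45.6% did not overlap between the days. Set against each of the 66 other tested hosts, Dppa5a had 48 ratios without overlap, Gata6 28, Nr1h2 24, Rest 22 and Dppa3 16, where the median host had 27. The ratios of a host share its counts, and these values are a description with no test.

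The hosts whose CPM ran most like these over the 6 libraries were found by Pearson correlation of log2(CPM + 1). For Dppa5a they included Cnot1 (r = 0.967), with a log2 fold change of −0.49. For Dppa3 they were Psmd1 (r = 0.976) and Trim43b (r = 0.948), with log2 fold changes of −0.04 and 0.00. Rhoa, with a log2 fold change of 0.34, and Gm20594, with 0.18, were the closest pair for each of Gata6 (r = 0.956 and 0.861), Rest (r = 0.957 and 0.891) and Nr1h2 (r = 0.943 and 0.993). All points come from the same 6 libraries, and a high r among the tested hosts shows a like order of libraries, not a like size of change.

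From lists of 36 pluripotency genes, 33 lineage regulators, 15 corepressors of Rest and 24 nuclear receptor and sterol genes, 1 gene was a tested host. It was Trim28, a corepressor that silences retroviral elements in stem cells. Its guides had 3905, 3410 and 3537 CPM at day 0 and 2959, 2704 and 2359 CPM at day 10 in replicates 1 to 3, with no overlap. The host fell by 0.39 ± 0.117 (SE) on the log2 scale (edgeR adjusted p = 0.0151). Guide 1 changed by −0.50 (edgeR adjusted p = 0.0394) and guide 2 by −0.30 (edgeR adjusted p = 0.282). The host was not past the threshold without day 0 replicate 1 (edgeR adjusted p = 0.0910) or 3 (0.0503) or with median-ratio factors of the controls (0.319). Guide 1 was not past it with the replicate block (0.0790), without any 1 day 0 library (0.126 to 0.177) or without day 10 replicate 2 (0.0736). The same held for guide 1 with median-ratio factors of the controls (0.343) and with the GC trend removed plus the block (0.0644).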

How the data were processed

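The authors deposited raw counts per guide sequence and library, per the file headers. Bowtie2 2.3.4.3 is named in the submitters' processing notes, and the counting rule is not given in the sources used here. A missing entry was read as 0. Unnamed sequences, 1.25% to 1.48% of a library, were left out. The members and gene lists were chosen with earlier results of these data known, all member guides are named, and beside them the 2 other tested hosts most alike to each member and any tested host of the lists, of which 1 is not reported here. All 5 host names matched RefSeq (GRCm38.p6), used for names only.

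Counts were tested with edgeR 4.0.16 (quasi-likelihood, TMM, day as the only term) in R 4.3.3, with Benjamini-Hochberg adjustment over all 136 tested guides or 67 hosts, threshold 0.05. Host values are summed guides. The SE is the log2 fold change divided by the square root of F. Guide ratios, with 0.5 counts added, were fitted with limma 3.58.1 over 63 hosts. Intervals of counts cover counting error only. Alternatives were DESeq2 1.42.0, other size factors and count filters, a variance per day, the replicate block, removal of the GC trend, Stouffer's combination, other pseudocounts and leaving out each library.

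The file headers give libraries with the same replicate number the same screen number, which was taken as the pairing, though no source used here says that they share an infection. Correlations of the deviations of same-numbered libraries were −0.093, −0.198 and −0.017, so the values themselves show no pairing. Sequences were read with Python 3.11.15.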

Additional observations from a re-analysis of the deposited data

Results flagged for a closer look

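Signal appeared in entries of the count table that carry no guide name. The unnamed sequence that overlaps Gata6 guide 1 had 29467 counts over the 6 libraries and was counted in each of them, while Gata6 guide 1 as listed had 0. With the replicate block its log2 fold change was 0.16 (edgeR adjusted p = 0.217), and with size factors from the summed control guides it was 0.05 (edgeR adjusted p = 0.711).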

How the results depend on the processing

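Median-ratio control factors and the GC settings were chosen after seeing the data. The number of guides past the threshold, 1 of 8, was 2 with a variance per day and 0 with the replicate block, with median-ratio control factors, with the GC trend removed and with the latter plus the block. Without single libraries it ran from 0 to 3. Over all 136 guides the number was 29 in the main fit, 50 with a variance per day, 12 with the block and 0 with median-ratio control factors. It was 10 with either GC setting and 3 to 47 without single libraries. The number of hosts, 1 of 5, was 2 with the DESeq2 test, with the GC trend removed and with the unnamed sequence added, 3 with DESeq2 size factors, a variance per day or the replicate block, and 0 with median-ratio control factors. Without single libraries it ran from 0 to 3. Over all 67 hosts the number was 25 in the main fit and with the block, 30 with DESeq2 size factors and 37 with a variance per day. It was 2 with median-ratio control factors and 15 to 30 without single libraries. For the guide ratios of Dppa5a, Nr1h2 and Rest the number stayed at 0. Among the 63 hosts with 2 tested guides, 0 ratios passed in the main fit and 5 with the block. Dropping single libraries gave 0 to 2.

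Size factors from the summed controls moved the median of all guides to −0.11 and turned Nr1h2 guide 1 (−0.07), Nr1h2 (−0.04) and Dppa3, guide and host (−0.10). A variance per day turned Dppa3 guide 1 (−0.03) and Dppa3 (−0.01). Dppa5a guide 1 turned to 0.14 with DESeq2, the block, or the block with the GC trend removed, and to 0.05 with median-ratio control factors. Stouffer's combination left Dppa5a at an adjusted p of 0.106. Without single libraries Dppa5a guide 1 ran from −0.55 to 0.35, Dppa3 from −0.05 to 0.10, and the change of the guide ratio from −0.10 to 0.90 for Dppa5a, −0.20 to 0.09 for Nr1h2 and −0.15 to 0.15 for Rest. The cause was not tested. Depth limits Dppa5a guide 1 most, at 11 counts in day 10 replicate 3.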

Other observations

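The ratio of a host's guides varied more between the day 10 libraries than between the day 0 libraries. For Nr1h2 the SD of the log2 ratio was 0.0175 at day 0 and 0.294 at day 10 (n = 3 per day), and for Rest it was 0.0354 and 0.301. Counting error alone gives an SD of the log2 ratio of 0.0157 to 0.0964 for Nr1h2 and 0.0223 to 0.152 for Rest in the day 10 libraries. The wider spread is shared by the pool, with a larger SD at day 10 in 53 of the 63 hosts and a median SD of 0.101 at day 0 and 0.264 at day 10. No scaling between libraries enters these ratios. In Nr1h2 the guides moved in opposite orders over screens 1 to 3, at −0.06, 0.05 and 0.18 for guide 1 and 0.25, 0.13 and −0.06 for guide 2, while their sum changed by 0.08 in each.

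Across the 136 tested guides, which share the 6 libraries, the log2 fold change had a Pearson r of 0.159 and a Spearman rho of 0.227 with GC content. Among the 8 guides, those of Rest and Gata6 have the highest GC content, and their log2 fold changes were 0.02, 0.09 and 0.12 after the trend was removed, against 0.14, 0.22 and 0.26. Nr1h2 guide 2, with the next highest at 70.0%, was at 0.03 after the removal, against 0.13. Dppa3 guide 1, with the lowest GC content of the 8, moved away from 0, to 0.22 against 0.02. Whether GC content caused any of these changes was not tested.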
